A study of Homo sapiens with 4 samples.

Results

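The cisplatin-resistant lines HN30/DDP and HN4/DDP were compared with each other on 2 of the 4 expression arrays of the study. HN4 and HN30 are established human lines from squamous cell carcinoma of the head and neck. HN4/DDP and HN30/DDP were derived from them by raising the dose of cisplatin stepwise, and by the labels they were in medium with 20 μM cisplatin for 48 hours, while the parental lines had no cisplatin. Each of the 4 lines was measured on 1 one-colour Agilent array, so both resistant arrays share the drug and its dose and differ in the line, its selection and everything that went with that 1 culture. A gene was represented by its brightest probe, and the comparison covered 41784 gene names outside chromosomes X and Y, of 43305 with those chromosomes included. On the resistant arrays, 27749 of them were well above background on at least 1 array and 23602 on both, and these 27749 are called the genes tested below.

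Cisplatin binds DNA and links neighbouring bases, which blocks replication and sets off repair, cell cycle arrest or apoptosis. Squamous carcinoma cells keep parts of the programme of stratified epithelium, in which basal cells carry keratin pairs such as KRT5 with KRT14, and upper layers switch to other keratins and to small proline-rich proteins that are cross-linked into the cornified envelope. A line selected in cisplatin can leave its parent in many ways, through drug export, repair, growth arrest, signalling or a change in differentiation, and a second line selected in the same drug need not take the same one.

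Levels are given as log2 of the processed signal minus the 75th percentile of the array, and a difference is HN30/DDP minus HN4/DDP on that log2 scale, so that a positive value means a higher level in HN30/DDP. A gene was counted as higher in 1 of the lines when its difference lay beyond 2, which is 4-fold, and its signal on the brighter array was well above background. With 1 array per line there is no replicate error, no test and no p-value. The scanner SD given beside a difference follows from the error the scanner software assigned to each spot, and it leaves out all variation between cultures. Where the dimmer array was not well above background, the difference is given as a bound in the form of at least N-fold, taken against the dimmest signal that still passed as well above background there.

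The 4 arrays had 75th percentiles of 444 to 496 intensity units, and between 55.3% and 63.6% of their spots were well above background, with the highest share on HN30/DDP. All 12 listed squamous markers were well above background on at least 1 resistant array and 11 on both. Of the markers of other cell types, 4 of 10 fibroblast, 5 of 8 endothelial, 8 of 9 leukocyte, 3 of 6 melanocyte and 3 of 7 neural markers were above background on at least 1 resistant array. Among them PDGFRA, DCN, KDR, TEK, SOX10 and CHGA were not well above background on any of the 4 arrays, while PTPRC, CD14, VWF, CDH5, MITF and ENO2 were well above background on both resistant arrays.

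Of the genes tested, 1587 were higher in HN30/DDP, which is 5.72%, and 696 were higher in HN4/DDP, which is 2.51%. These shares are the background for the counts of the gene lists below. Between the parental arrays the same rule counted 225 genes higher in HN30, which is 0.900% of those tested there, and 456 higher in HN4, which is 1.82%. The resistant lines thus differed in 2283 genes and the parental lines in 681, a ratio of 3.35. Over the 23602 genes with both resistant signals well above background, the SD of the difference across genes was 0.95 between the resistant lines and 0.61 between the parents. Across the 21412 genes above background on all arrays, Pearson's r was 0.986 for HN4 with HN30, 0.969 for HN4 with HN4/DDP, 0.942 for HN30 with HN30/DDP and 0.956 for HN4/DDP with HN30/DDP. The parental arrays were more alike than any other pair. These correlations are across genes, which are not independent replicates.

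**Figure D1:**
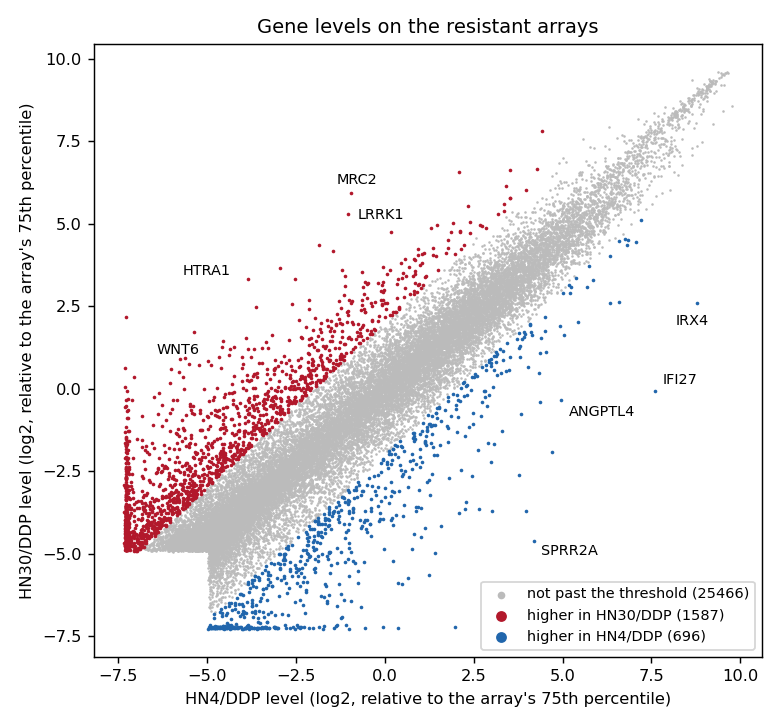
Level of each gene tested on the HN4/DDP array (x axis) and the HN30/DDP array (y axis), both as log2 relative to the array's 75th percentile. The 1587 genes higher in HN30/DDP are red, the 696 higher in HN4/DDP blue and the rest grey, and the straight edges at the lower left are dim signals, where only a bound can be given.

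The excess of calls towards HN30/DDP lay mainly among dim genes. With the genes tested cut into 4 equal groups by brightness, in the dimmest group the median difference was 0.51 and 777 genes were higher in HN30/DDP against 281 in HN4/DDP. In the brightest group the median difference was -0.21, with 74 genes higher in HN30/DDP and 69 in HN4/DDP. Of all called genes 69.5% were higher in HN30/DDP, and the median difference of the genes tested was 0.13. With each array scaled to its median in place of its 75th percentile, 52.0% of the calls were higher in HN30/DDP. On the 7 spike-in probes with all spots well above background, which measure RNA added to the labelling, HN30/DDP was higher by a median of 0.18 after scaling, and scaling to them put 61.1% of the calls higher in HN30/DDP. The split between the directions thus depended on the scaling. Genes just past the threshold are within reach of these shifts, and those with the largest differences are far beyond them.

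Of the 2283 genes that differed between the resistant lines, 126 (5.52%) were also past the threshold between the parents, beside 325 (1.28%) of the 25466 genes tested that did not differ. Of the 1587 genes higher in HN30/DDP, 1211 (76.3%) had parental levels within 1 log2 unit of each other, 22 were also past the threshold in the same direction between the parents and 50 in the opposite direction. Of the 696 genes higher in HN4/DDP, 534 (76.7%) had parental levels within 1 unit, 40 were past the threshold in the same direction between the parents and 14 in the opposite one. Of all 27749 genes tested, 24962 (89.96%) had parental levels within 1 unit, a larger share than among the called genes of either direction. The parental comparison shares no array with the resistant comparison.

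**Figure D2:**
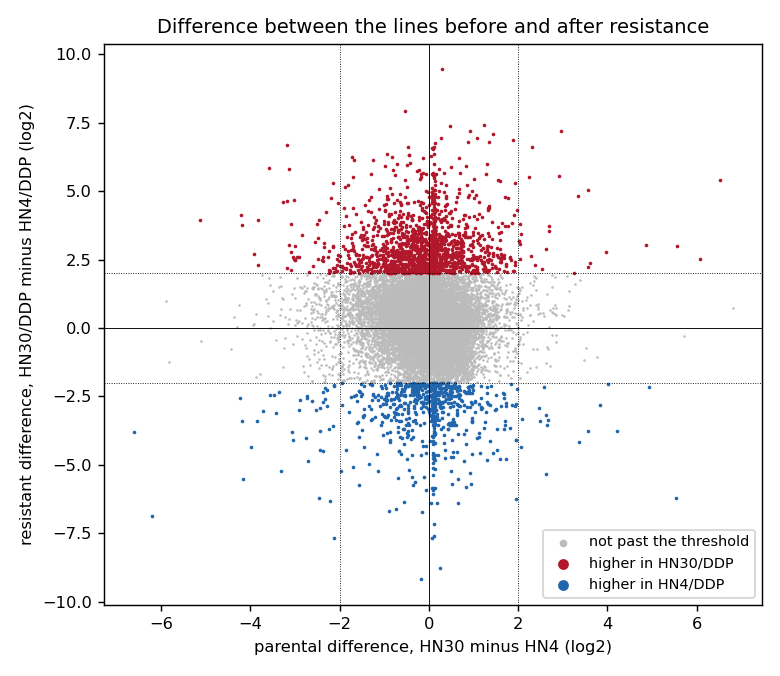
Difference between the parental lines, HN30 minus HN4 (x axis, log2), and between the resistant lines, HN30/DDP minus HN4/DDP (y axis, log2), for each gene tested, with dotted lines at the threshold of 2. The coloured genes of the resistant comparison crowd around a parental difference of 0, and 126 of them lie beyond the vertical lines (22 and 50 of the red, 40 and 14 of the blue genes).

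By arithmetic a resistant difference is the parental difference plus the change from HN30 to HN30/DDP minus the change from HN4 to HN4/DDP. Among the genes higher in HN30/DDP the largest of these terms was an increase in HN30/DDP for 1111 genes (70.0%), a decrease in HN4/DDP for 399 (25.1%) and the parental difference for 77. Among those higher in HN4/DDP it was an increase in HN4/DDP for 442 genes (63.5%), a decrease in HN30/DDP for 205 (29.5%) and the parental difference for 49. Each direction thus held genes gained in 1 resistant line and genes lost from the other. Each change joins the selection with the 48 hours in cisplatin, which the parents did not have. The design cannot tell these apart.

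Genes of the cornified envelope and of the upper layers of stratified epithelium had the lowest median of the gene lists. Of the 35 listed genes 31 were tested, 13 were higher in HN4/DDP and 2 in HN30/DDP, with a median difference of -1.66 beside 0.13 for all genes tested. A difference below 0 was found for 22 of them and above 0 for 9. The median was -1.35 with dim members at their bounds and -0.90 with normexp background correction, where DNA replication genes lay lower at -1.175, as they did with a pseudocount of 16 (-1.21 beside -1.175). SPRR2A, which encodes a small proline-rich protein of the envelope (probe at chr1:153028599-153028658, hg19), had a level of -1.94 in HN4 and 4.19 in HN4/DDP, against -1.70 in HN30 and -4.60 in HN30/DDP. It stood highest in HN4/DDP and lowest in HN30/DDP, with both parents between them and close to each other. Its difference of -8.79 (scanner SD 0.31), or 442-fold, was the largest of all RefSeq messenger RNAs above background on both resistant arrays. A second SPRR2A probe differed by -6.81.

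Other members of the family were also higher in HN4/DDP, though not all of them. SPRR2E had a level of -1.92 in HN4 and 3.96 in HN4/DDP, against -1.85 in HN30 and -3.71 in HN30/DDP, a difference of -7.67 (scanner SD 0.24). SPRR2F had -0.99, 4.71, -1.73 and -1.92 in the same order, a difference of -6.63 (scanner SD 0.21). SPRR1B was at least 82.0-fold higher in HN4/DDP, since it was not well above background in HN30/DDP. SPRR2D and SPRR1A did not pass the threshold, with differences of -1.35 and -0.28. The SPRR2 genes are near-identical copies, so their probes may read each other's transcripts and the members are not independent.

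The SPRR2A, SPRR2F and SPRR1B promoters are shown because these genes lie in 1 cluster and had the same order of levels between the resistant lines. The sequences are the 250 bases before the RefSeq transcription start, on GRCh38.p14, written 5′ to 3′ along the gene. Capitals mark matches to the AP-1 motif TGANTCA and to the TATA motif TATAAA, on either strand. AP-1 is a dimer of FOS and JUN proteins with a long-known role in squamous differentiation genes.
SPRR2A (chr1:153057513-153057762, minus strand): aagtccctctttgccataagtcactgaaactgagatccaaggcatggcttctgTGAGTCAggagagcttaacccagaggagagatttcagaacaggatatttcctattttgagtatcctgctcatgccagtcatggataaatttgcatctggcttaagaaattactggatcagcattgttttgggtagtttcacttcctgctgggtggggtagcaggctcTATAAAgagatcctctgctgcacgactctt
SPRR2F (chr1:153113517-153113766, minus strand): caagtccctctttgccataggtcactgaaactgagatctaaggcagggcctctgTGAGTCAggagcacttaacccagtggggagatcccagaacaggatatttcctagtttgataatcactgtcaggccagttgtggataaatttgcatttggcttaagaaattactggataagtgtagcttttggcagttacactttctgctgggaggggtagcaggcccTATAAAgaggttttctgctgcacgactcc
SPRR1B (chr1:153030953-153031202, plus strand): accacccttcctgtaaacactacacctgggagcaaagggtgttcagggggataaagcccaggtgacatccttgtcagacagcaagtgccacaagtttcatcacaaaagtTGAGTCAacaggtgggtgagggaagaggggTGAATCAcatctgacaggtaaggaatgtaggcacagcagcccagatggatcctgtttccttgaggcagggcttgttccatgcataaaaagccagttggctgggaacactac

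Counted from the transcription start, the AP-1 match began at position -197 in SPRR2A and -196 in SPRR2F, and SPRR1B held one at -141 and one at -111. The windows of SPRR2A and SPRR2F were 87.1% identical over 248 aligned bases, so their matches are not independent. Windows of the same length were matched for 329 of the genes higher in HN4/DDP, and 40 of them (12.2%) held the AP-1 motif. The share was 4.76% for the 693 matched genes higher in HN30/DDP, 4.85% for the 13574 matched genes tested and 6.56% for all 26246 RefSeq promoters off X and Y. In the cornified envelope list 14 of 32 windows held it. TATAAA was found in 15.5% of windows of genes higher in HN4/DDP, 10.8% of those higher in HN30/DDP and 7.54% of those tested. The windows of genes higher in HN4/DDP held a median of 7 CG pairs and 57.6% G and C. The values were 15 and 63.6% for genes higher in HN30/DDP and 19 and 63.2% for genes tested. The motif shares were not adjusted for this difference in letters. A match is a stretch of letters and was not tested as a binding site.

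Other envelope and barrier genes followed the same order between the resistant lines. SERPINB3, a protease inhibitor of squamous epithelium, was at least 49.0-fold higher in HN4/DDP, and its near-identical neighbour SERPINB4 at least 36.0-fold. S100A7, an antimicrobial protein of keratinocytes, had a level of 0.59 in HN4 and 2.91 in HN4/DDP, against 1.21 in HN30 and -1.64 in HN30/DDP. SCEL, KLK5, SPRR3, S100A8, S100A12 and S100A9 had differences between -4.46 and -2.21. Of the 9 members above 0, SBSN at 3.51 and SPINK5, an inhibitor of skin kallikreins, at 3.09 passed the threshold. Further SPINK5 probes differed by 1.76 and 3.49. KLK10, HOPX and LCE3E lay at 0.50, 0.37 and 0.13 and the structural late markers IVL and FLG at 0.03 and 0.05. KLK11 and KRTDAP, not well above background in HN4/DDP, were at least 2.52-fold and 1.52-fold higher in HN30/DDP.

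Keratins repeated this pattern. Of 26 listed keratins 22 were tested, 10 were higher in HN4/DDP and KRT5 alone was higher in HN30/DDP, with a median difference of -1.52. The median was -1.04 with dim members at their bounds, and -0.74 over members above background on both resistant arrays. KRT13, a keratin of the upper layers of oral mucosa, had a level of -1.76 in HN4 and 2.29 in HN4/DDP, against -2.12 in HN30 and -3.44 in HN30/DDP. KRT23 was below background in both parents and had a level of 2.09 in HN4/DDP and -3.75 in HN30/DDP, a difference of -5.85 (scanner SD 0.24). It was thus higher in each resistant line than in its parent, by unequal amounts. KRT6A, a keratin of stressed and wounded epithelium, had -2.97 in HN4 and 0.35 in HN4/DDP, against 2.57 in HN30 and -5.87 in HN30/DDP, where it was below background. It was thus highest in HN30 and lost in its resistant derivative, and the bound was at least 39.3-fold. KRT6A, KRT6B and KRT6C are near-identical and their probes may share signal. KRT16 was at -3.39 and KRT15, a basal keratin, at -3.97.

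The basal keratin KRT5 went the other way, with a level of 2.79 in HN4 and -1.26 in HN4/DDP, against 2.84 in HN30 and 0.91 in HN30/DDP, a difference of 2.17 (scanner SD 0.21). Its difference ran from 1.815 to 2.371 across the settings, and it did not pass the threshold with normexp, median scaling or spike-in scaling. Its partner KRT14 differed by 0.74, and a second KRT14 probe by -0.70, so no direction is given for it. The simple epithelial keratins KRT8 and KRT18, which are abundant on all arrays, differed by -0.70 and -0.55, and KRT7 and KRT19 by -2.61 and -2.33. The lineage factor TP63 differed by 0.72, SFN by -1.16, PERP by 0.07, TRIM29 by -0.51, PKP1 by 0.39 and CDH3 by -0.50, while the desmosomal cadherin DSG3 differed by -2.02. Of 21 tested transcription factors of squamous lineage only GRHL3, an activator of barrier genes, passed the threshold, with a level of 2.46 in HN4/DDP and -1.07 in HN30/DDP. The other 20 lineage factors tested differed by less than 4-fold.

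**Figure D3:**
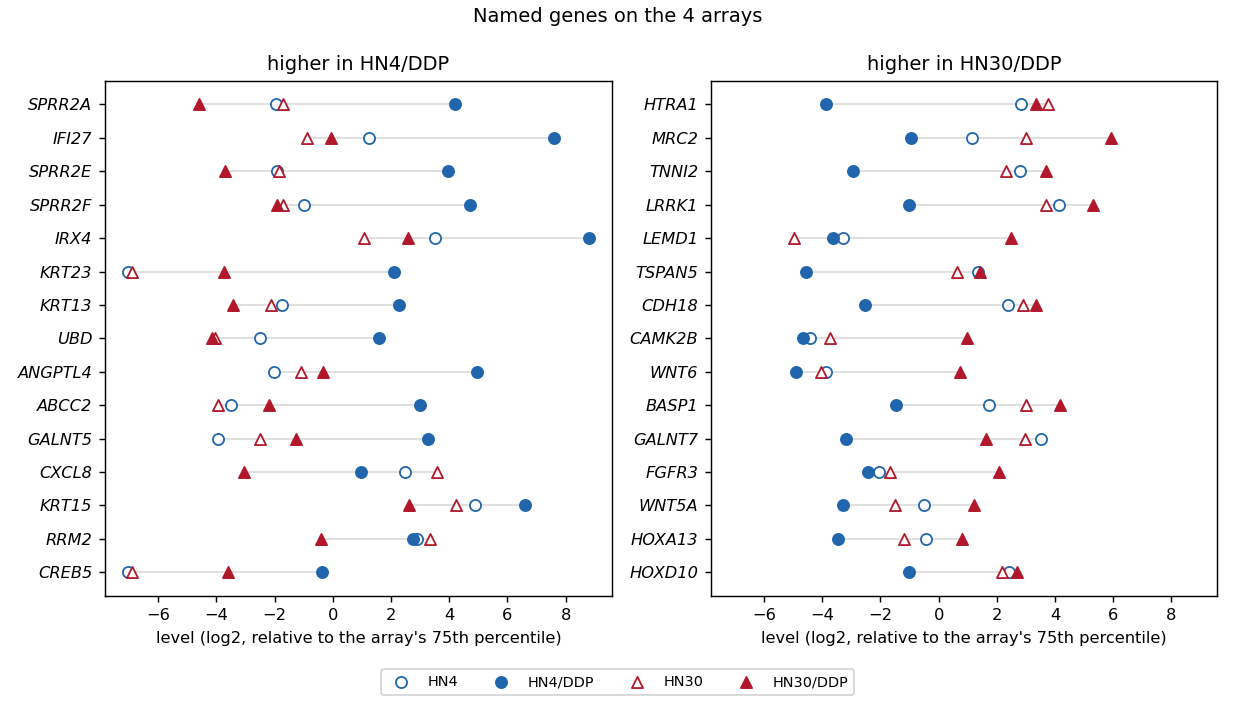
Levels of 15 genes higher in HN4/DDP (left) and 15 higher in HN30/DDP (right) on the 4 arrays, in log2 relative to each array's 75th percentile, with open symbols for the parental and filled symbols for the resistant lines and 1 value per symbol. On the left the filled blue circle of HN4/DDP is the rightmost point for most genes, while RRM2 and CXCL8 are set apart by a low HN30/DDP, and on the right genes such as HTRA1, TNNI2 and TSPAN5 are set apart by a low HN4/DDP and genes such as WNT6, CAMK2B and LEMD1 by a high HN30/DDP.

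Interferon-stimulated genes also lay towards HN4/DDP. All 38 listed genes were above background on both resistant arrays, 6 were higher in HN4/DDP and none in HN30/DDP, and 34 had a difference below 0, with a median of -1.04. The parents already differed in the same direction, with a median of -0.70 for HN30 minus HN4. IFI27, a mitochondrial protein induced by type I interferon (probe at chr14:94582967-94583026, hg19), had a level of 1.24 in HN4 and 7.61 in HN4/DDP, against -0.89 in HN30 and -0.08 in HN30/DDP. Its difference of -7.68 (scanner SD 0.20) was 205-fold, and the HN4/DDP array stood far above the other 3. IFITM1, an antiviral membrane protein, had -0.82, 6.32, -2.31 and 2.59 in the same order of arrays, so it was higher in both resistant lines than in their parents and differed by -3.73 between them. A second IFITM1 probe differed by -3.78. OAS2, IRF7 and OAS3 had differences of -3.26, -3.02 and -2.14. GBP2 had the largest difference in the other direction, 1.72, while IRF1 lay at 0.81. IFI27 thus lay far from the rest of the list. The count depends on the scaling, with 13 genes higher in HN4/DDP under median scaling and 11 under spike-in scaling.

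The IFI27 promoter is shown because IFI27 had the second largest difference of all messenger RNAs above background on both arrays. Capitals mark TATAAA and matches to GAAANNGAA, the paired half-sites of the interferon-stimulated response element (ISRE), on either strand, in the 250 bases before the first of 2 listed starts.
IFI27 (chr14:94110486-94110735, plus strand): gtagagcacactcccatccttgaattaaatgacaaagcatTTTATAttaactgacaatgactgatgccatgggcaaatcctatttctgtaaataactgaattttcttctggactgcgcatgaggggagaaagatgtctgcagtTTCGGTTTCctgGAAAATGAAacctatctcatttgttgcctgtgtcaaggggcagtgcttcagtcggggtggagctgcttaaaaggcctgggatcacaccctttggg
The window held 2 ISRE matches, 1 on each strand, at positions -107 and -95 from the start. The same letters were found in 19 of 29 matched windows of the interferon list (65.5%), 5.73% of the windows of genes tested, 7.29% of those higher in HN4/DDP and 4.62% of those higher in HN30/DDP.

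Targets of NRF2, the factor that answers oxidative and electrophilic stress, held 4 calls towards HN4/DDP. Of 28 tested targets 20 had a difference below 0, with a median of -0.50, and none was higher in HN30/DDP. Among all genes tested 2.51% were higher in HN4/DDP and 5.72% in HN30/DDP. The glutathione and metallothionein list had a median of 0.09 with 13 of 25 above 0, and the aldehyde and retinoid list a median of 0.12, both of which fell below 0 under median and spike-in scaling. ABCC2, an export pump for glutathione conjugates, had a level of -3.49 in HN4 and 2.98 in HN4/DDP, against -3.94 in HN30 and -2.21 in HN30/DDP, a difference of -5.19 (scanner SD 0.21). A second, dimmer ABCC2 probe differed by only 0.34, so the probes of this gene disagree. GPX2, a glutathione peroxidase, differed by -3.53, and AKR1C1 and AKR1C3, near-identical aldo-keto reductases, by -3.39 and -2.85. The glutathione synthesis genes GCLC and GCLM lay at 0.51 and 0.52 and NQO1 at -1.52. AKR1B10 had levels of 0.91 and 0.56 in the resistant lines and of -4.67 and -5.20 in HN4 and HN30, the latter below background, so it was far above both parents at like levels in both. The targets thus did not move as 1 block.

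Of 14 tested genes of platinum transport, 1 lay past the threshold in each direction, beside 5.72% and 2.51% of all genes tested. ABCG2, an export pump, differed by -2.56 and SLC47A2, an organic cation exporter of the MATE family, by 3.40. The copper transporters SLC31A1 and ATP7B and the multidrug pump ABCB1 differed by -0.68, 0.16 and 0.00. Retinoid genes held DHRS9, a retinol dehydrogenase. It was below background in HN4, HN30 and HN30/DDP, and its level of 1.97 in HN4/DDP was at least 120.1-fold above HN30/DDP. ALDH1A1, CYP26A1 and ALDH2 were higher in HN30/DDP, by 2.66, 2.58 and 2.21, and a second ALDH1A1 probe differed by 1.03.

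Further single genes marked the HN4/DDP array. IRX4, a homeobox factor, had a level of 3.52 in HN4 and 8.79 in HN4/DDP, against 1.06 in HN30 and 2.59 in HN30/DDP, a difference of -6.20 (scanner SD 0.20). ANGPTL4, an inhibitor of lipoprotein lipase, had -2.01, 4.96, -1.09 and -0.33, a difference of -5.29 (scanner SD 0.20). In both genes the HN4/DDP array stood alone above the other 3. LMO2 differed by -6.31, UBD, a ubiquitin-like modifier, by -5.72, CERS1, a ceramide synthase, by -5.50 and KRT34 by -5.23. GAL, which encodes the peptide galanin, was at least 72.2-fold higher in HN4/DDP, but its parents were already apart, with a level of 0.32 in HN4 and a signal not well above background in HN30. PSG5 was at least 48.4-fold higher.

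Secreted mediators were divided. Of 36 tested chemokines and cytokines, 6 were higher in HN30/DDP and 9 in HN4/DDP, beside 5.72% and 2.51% of all genes tested. CXCL8, a neutrophil chemokine, had a level of 2.49 in HN4 and 0.96 in HN4/DDP, against 3.57 in HN30 and -3.07 in HN30/DDP, and CXCL2, CCL20 and CSF2 had the same sign, at -2.81, -2.53 and -2.35. For CXCL8 both resistant lines lay below their parents, and HN30/DDP by far more. IL1RN, the antagonist of the interleukin-1 receptor, had 2.44 in HN4/DDP and -2.64 in HN30/DDP, while a second probe differed by -1.36. Towards HN30/DDP lay CSF3 at 3.03, IL11 at 2.90, IL1A at 2.14 and TNFSF10 at 2.10, and TSLP was at least 2.18-fold higher. CSF3 was set apart by the parents as well, with -0.88 in HN4 and 3.98 in HN30.

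Mucin and O-glycosylation genes gave 4 members higher in HN4/DDP and 1 in HN30/DDP of 27 tested, beside 2.51% and 5.72% of all genes tested. The members furthest apart belonged to the same enzyme family, which starts O-linked glycans. GALNT5 had a level of -3.96 in HN4 and 3.28 in HN4/DDP, against -2.52 in HN30 and -1.27 in HN30/DDP, a difference of -4.56 (scanner SD 0.21). GALNT7 had 3.51, -3.18, 2.97 and 1.61, a difference of 4.79 (scanner SD 0.22). HN4/DDP thus carried the highest GALNT5 and the lowest GALNT7 of the 4 lines. The membrane mucins MUC20 and MUC1 differed by -3.05 and -1.94, and MUC21 and MUC15, not well above background in HN30/DDP, were at least 2.57-fold and 5.05-fold higher in HN4/DDP.

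All 30 mitosis genes and all 29 tested DNA replication genes had a difference below 0, with medians of -1.05 and -1.24, and 1 and 3 of them passed the threshold. Of all genes tested 11881 of 27749 lay below 0 and 2.51% were higher in HN4/DDP. RRM2, a subunit of ribonucleotide reductase, had a level of 2.91 in HN4 and 2.74 in HN4/DDP, against 3.33 in HN30 and -0.41 in HN30/DDP, a difference of -3.15 (scanner SD 0.20). UHRF1 and GINS2 differed by -2.12 and -2.10, and CDC20, the activator of the anaphase-promoting complex, by -2.03. MKI67 and TOP2A lay at -0.79 and -0.90. Here the HN30/DDP array stood below the other 3, with a median change of -1.72 from HN30 for mitosis beside -0.49 from HN4 to HN4/DDP. Clustered histone genes, which are transcribed in S phase, had a median of -0.77 with 29 of 31 below 0, and their parental median was 0.80, so the order of the lines was reversed. The histone genes above 0 were HIST1H1D, at 0.55, and HIST1H1A, which was not well above background in HN4/DDP and at least 2.63-fold higher in HN30/DDP. Whether fewer cycling cells or less RNA per cell lies behind a level cannot be told apart in bulk samples.

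DNA repair followed with smaller values. The Fanconi, homologous recombination and mismatch repair list had a median of -0.69, with 28 of 33 below 0, and nucleotide excision repair, the main pathway for platinum adducts, had -0.43, with 19 of 21 below 0. Across the settings these medians ran from -1.048 to -0.491 and from -0.786 to -0.224. Of all genes tested 11881 of 27749 lay below 0, and the brightest of the 4 brightness groups had a median of -0.21. No gene of either list passed the threshold. The cell cycle lists moved with these lists, and their part in the repair values was not tested. Of 30 p53 targets, 1 was higher in HN4/DDP, beside 2.51% of all genes tested, and this was TP53I3, which differed by -3.44, and its second probe by -3.50. GDF15, a stress-induced cytokine, had levels of 9.54 in HN4/DDP against 9.19 in HN30/DDP, and CDKN1A, the p21 inhibitor of cell cycle kinases, had 1.37 and 0.45. The median of the p53 list was -0.58, and FAS, GADD45A and AEN differed by -1.69, -1.68 and -1.30. A difference below 0 was found for 22 of the 30 and above 0 for 8, up to 1.41.

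**Figure D4:**
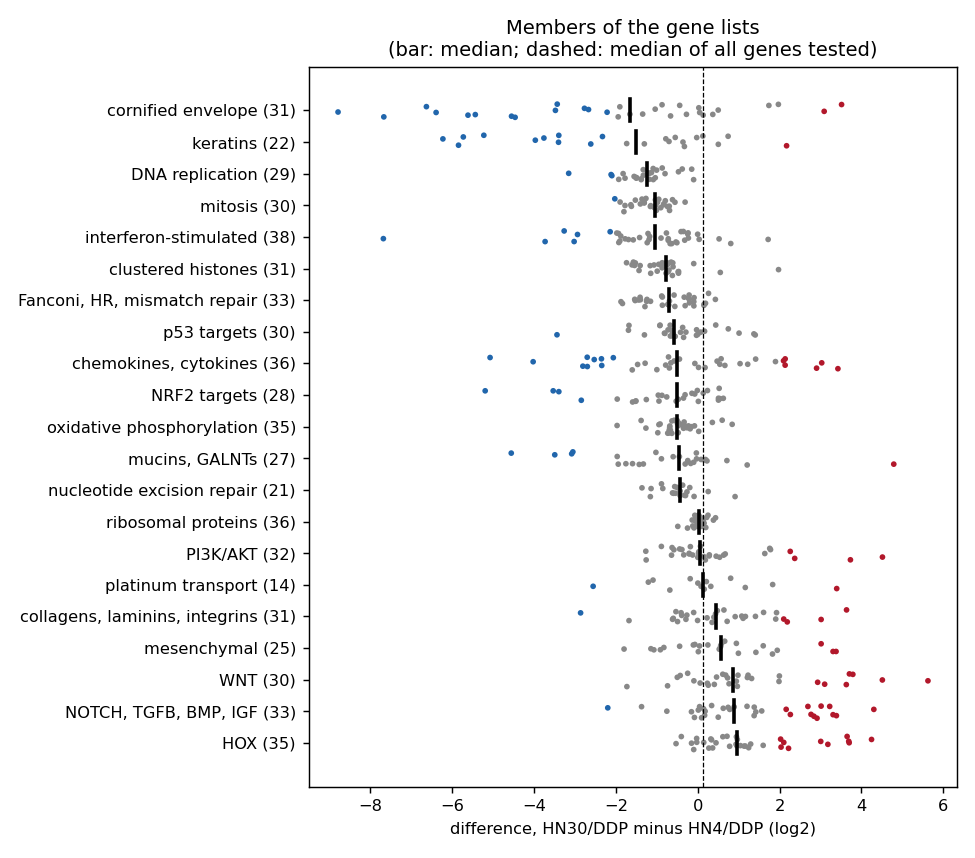
Difference between HN30/DDP and HN4/DDP (log2, x axis) of each tested member of 21 gene lists, with the number of members tested in brackets, a black bar at the list's median and a dashed line at the median of all genes tested (0.13). Members past the threshold are red (higher in HN30/DDP) or blue (higher in HN4/DDP), and the medians run from -1.66 for the cornified envelope to 0.95 for HOX genes, with ribosomal proteins at 0.03.

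HOX genes lay in the other direction, towards HN30/DDP. Of 35 tested HOX genes and HOX transcripts, 10 were higher in HN30/DDP and none in HN4/DDP, with a median of 0.95. HOX factors give cells their position along the body axis. HOXA13 had a level of -0.44 in HN4 and -3.46 in HN4/DDP, against -1.19 in HN30 and 0.79 in HN30/DDP, a difference of 4.25 (scanner SD 0.23). HOXD10 had 2.41, -1.01, 2.18 and 2.69, a difference of 3.70 (scanner SD 0.21). Both genes had like levels in the parents and were lowest in HN4/DDP. HOXD9, HOXB8, HOXD11 and HOXB9 differed by 3.65, 3.18, 2.22 and 2.04. HOXD13 and HOXC11 were at least 2.63-fold and 3.37-fold higher in HN30/DDP. The 6 HOX genes below 0, HOXB6, HOXC9, HOXC6, HOXA11, HOXA7 and HOXA10, lay no lower than -0.53. The count of 10 was the highest of the settings tried, and it was 3 with normexp background correction, 5 with a pseudocount and 6 with median scaling.

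WNT genes held 7 members higher in HN30/DDP and none in HN4/DDP of 30 tested, with a median of 0.85. The 7 were all secreted proteins, 5 WNT ligands with the antagonist DKK3 and NOTUM, an enzyme that inactivates WNT. WNT6 had a level of -3.87 in HN4 and -4.91 in HN4/DDP, against -4.04 in HN30 and 0.72 in HN30/DDP, a difference of 5.62 (scanner SD 0.34). WNT5A, a ligand of the non-canonical branch, had -0.49, -3.28, -1.50 and 1.23, a difference of 4.51 (scanner SD 0.22). WNT6 was thus gained in HN30/DDP, while WNT5A was low in HN4/DDP and high in HN30/DDP. WNT11, WNT10A and WNT4 differed by 3.79, 3.71 and 3.63. WNT10A was set apart by a low HN4/DDP, with 2.89 in HN4 and -1.63 in HN4/DDP. Among receptors FZD4 was at 1.99 and FZD1 at 1.21, and LRP5 and LRP6 at 0.98 and 0.40. The feedback ligase RNF43 was the lowest of the list, at -1.73.

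NOTCH, TGFB, BMP and IGF genes gave 11 of 33 higher in HN30/DDP and 1 in HN4/DDP, with a median of 0.89. Among ligands, DLL1, which activates NOTCH receptors, had a level of -3.03 in HN4 and -3.54 in HN4/DDP, against -1.07 in HN30 and 0.77 in HN30/DDP. INHBA, an activin subunit, differed by 3.01, BMP2 by 2.84, and TGFB2 was at least 7.51-fold higher. Among receptors, IGF1R differed by 2.91 and NOTCH3 by 1.56, and TGFBR3, a co-receptor, by -2.20. Among the targets and inhibitors of BMP signalling, ID1 had 6.44, 4.42, 7.20 and 7.81 in the order of arrays used above, a difference of 3.39 (scanner SD 0.20), SMAD6 differed by 3.22 and NOG by 2.26, and HEY1, a NOTCH target, by 2.69. Of the 33 members tested, 28 had a difference above 0 and 5 below. Under the other settings between 5 and 11 members were higher in HN30/DDP, so the count depends on the processing.

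Of 31 tested collagens, laminins and integrins, 4 were higher in HN30/DDP and 1 in HN4/DDP, beside 5.72% and 2.51% of all genes tested. The median of the list was 0.44. A difference above 0 was found for 19 of the 31, beside 15868 of all 27749 genes tested (57.2%), and median scaling gave 2 calls in each direction. COL12A1 had a level of 5.04 in HN4 and -1.82 in HN4/DDP, against 3.96 in HN30 and 1.82 in HN30/DDP, so it was below its parent in both lines and further below in HN4/DDP. COL6A1 and COL6A2, which form 1 trimer, differed by 3.01 and 2.10, and COL5A1 by 2.19. COL17A1, a collagen of hemidesmosomes, had -2.25, 3.41, -1.71 and 0.55, a difference of -2.86 (scanner SD 0.20). Of 25 tested mesenchymal genes, SNAI2, LOX and TGFB2 were higher in HN30/DDP and none in HN4/DDP, beside 5.72% and 2.51% of all genes tested. SNAI2 lay at 3.01 and LOX at 3.38. VIM lay at -0.91 and FN1 at 0.04.

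The single genes furthest towards HN30/DDP fell mostly into those absent or low in HN4/DDP and those gained in HN30/DDP. HTRA1, a secreted serine protease (probe at chr10:124274338-124274397, hg19), had a level of 2.84 in HN4 and -3.87 in HN4/DDP, against 3.77 in HN30 and 3.34 in HN30/DDP, a difference of 7.20 (scanner SD 0.24), or 147-fold. TNNI2 had 2.80, -2.94, 2.33 and 3.67, and TSPAN5, a tetraspanin, had 1.36, -4.57, 0.63 and 1.44. In these genes 3 arrays lay together and HN4/DDP stood far below them. LRRK1, CDH18 and BASP1 were also lowest in HN4/DDP, with differences of 6.33, 5.88 and 5.62. Below background in HN4/DDP alone were SLC25A27, GNG11, PRSS23 and ELOVL4, at least 49.3-fold, 60.3-fold, 56.5-fold and 52.6-fold higher in HN30/DDP. For PRSS23 a second probe differed by only 0.60.

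MRC2, a collagen-binding endocytic receptor, had a level of 1.14 in HN4 and -0.94 in HN4/DDP, against 3.02 in HN30 and 5.92 in HN30/DDP, a difference of 6.86 (scanner SD 0.20), or 116-fold. All of its terms pointed the same way, with a parental difference of 1.88, a change of 2.90 in HN30/DDP and of -2.08 in HN4/DDP. LEMD1 had -3.31, -3.63, -4.97 and 2.49, and CAMK2B, a subunit of a calcium-dependent kinase, had -4.42, -4.68, -3.72 and 0.97. For these the HN30/DDP array stood alone above the other 3. ADRBK2, a receptor kinase, differed by 5.85 and TFF2, a trefoil peptide, by 5.55. For TFF2 the largest term was the parental difference of 2.92, beside a change of 2.05 in HN30/DDP and of -0.58 in HN4/DDP. STON1 and C16orf45 were at least 53.8-fold and 47.9-fold higher in HN30/DDP, although a second STON1 probe differed by 0.83.

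Of 32 tested genes of the PI3K and AKT pathway, a kinase cascade for growth and survival, 4 were higher in HN30/DDP, beside 5.72% of all genes tested. These were the receptors FGFR3 and FGFR2, the adaptor IRS1 and the lipid phosphatase INPP5D, with differences of 4.51, 2.37, 3.73 and 2.26, and none was higher in HN4/DDP. FGFR3 had a level of -2.06 in HN4 and -2.43 in HN4/DDP, against -1.66 in HN30 and 2.08 in HN30/DDP, and its second probe differed by 1.26. The catalytic subunit PIK3CA lay at 0.00, AKT1 at -0.18, AKT2 at 0.45 and MTOR at -0.21. The EGFR family and its ligands and feedback genes had a median of 0.03 over 21 tested members, with DUSP5 lowest at -1.87. EGFR and ERBB4 were higher in HN30/DDP and none in HN4/DDP, beside 5.72% and 2.51% of all genes tested. Neither passed when the probes of each gene were averaged, while median scaling gave 1 gene higher in HN30/DDP and 2 in HN4/DDP and spike-in scaling 1 in each direction. EGFR had 3.03, 1.97, 2.59 and 4.08, a difference of 2.12 (scanner SD 0.20), and 2 further EGFR probes differed by 1.56 and 1.87. ERBB4 was at least 5.50-fold higher in HN30/DDP, while the ligands EGF, TGFA and EREG differed by -0.01, 0.12 and 0.22.

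The study followed 6 genes of this pathway and TOP1MT, and 2 of the 6 passed the threshold between the resistant lines, both towards HN4/DDP. The 6 pathway genes were picked by the study on the same arrays for being higher in both resistant lines. CREB5, a transcription factor of the CREB family (probe at chr7:28859103-28859162, hg19), was below background in HN4 and HN30 and had a level of -0.39 in HN4/DDP and -3.61 in HN30/DDP, a difference of -3.22 (scanner SD 0.24), or 9.31-fold higher in HN4/DDP. NOS3 had 2.54 and 0.43 in the resistant lines, a difference of -2.11, although a second, dimmer probe differed by -0.67. JAK3 and CCND2 were on the side of HN30/DDP without passing the threshold, at 1.69 and 1.64, CDKN1A was at -0.92 and EGF at -0.01. TOP1MT, the mitochondrial topoisomerase, had a level of 4.64 in HN4 and 4.41 in HN4/DDP, against 4.70 in HN30 and 5.03 in HN30/DDP, a difference of 0.62 (scanner SD 0.20). The line with the higher CREB5 signal had the lower TOP1MT signal of the resistant pair. The TOP1MT difference was below the threshold and ran from 0.27 to 0.95 across the settings. The study linked the genes by raising and silencing CREB5 within lines and by protein, ChIP and reporter assays. A comparison of 1 array per line does not test that link.

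Among the other 19 tested factors and co-activators of the CREB and ATF family, ATF5 was higher in HN4/DDP, at -2.20, and CRTC1 higher in HN30/DDP, at 3.68. Of all genes tested 2.51% were higher in HN4/DDP and 5.72% in HN30/DDP. CRTC1, a co-activator of CREB, had a level of 0.62 in HN4 and -0.51 in HN4/DDP, against -0.12 in HN30 and 3.17 in HN30/DDP, but a second probe differed by only 0.01, so the probes of CRTC1 disagree. CREB1, ATF4 and ATF3 differed by -0.30, 0.12 and -0.06.

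Few metabolic genes passed the threshold. Oxidative phosphorylation had a median of -0.50, with 31 of 35 members below 0 and none past the threshold. Across the settings its median ran from -0.858 to -0.258. Of all genes tested 11881 of 27749 lay below 0, and the brightest of the 4 brightness groups had a median of -0.21. Cholesterol and fatty acid synthesis had a median of -0.65, beside -1.15 between the parents, so this group was closer in the resistant lines than in the parental ones. HMGCS1 and ACAT2, enzymes of sterol synthesis, differed by -2.08 and -2.05. The 36 ribosomal protein genes lay between -0.49 and 0.44 with a median of 0.03. Among markers of other cell types, the endothelial genes CLDN5 and PECAM1 were at least 7.40-fold and 2.11-fold higher in HN30/DDP. The leukocyte markers CD14 and LCP1 differed by 2.11 and -2.11 and the neural marker TUBB3 by -2.27. The other tested endothelial markers ESAM, VWF and CDH5 had differences of -1.38, -0.79 and -0.10.

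Along the chromosomes the differences were small for whole autosomes, with medians from -0.05 on chromosome 11 to 0.30 on chromosome 7. Each chromosome was split at the widest stretch without probes. The first segment of chromosome 7, up to position 57928948 (hg19), had a median of 0.43 over 460 genes, and 73.3% of them had a difference above 0, beside 54.0% of the 23473 autosomal genes above background on both resistant arrays. Its parental median was 0.04, and its median change was -0.52 in HN4/DDP and -0.01 in HN30/DDP, so the segment was set apart by HN4/DDP. Relative to all autosomes it lay higher by 0.37, and by 0.21 to 0.41 under the other processing settings. The first segment of chromosome 11 lay in the other direction, with a median of -0.24 over 467 genes beside 0.05 between the parents. The first segment of chromosome 5 had -0.20, but there the parents already differed by -0.35. DNA copy number was not measured.

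**Figure D5:**
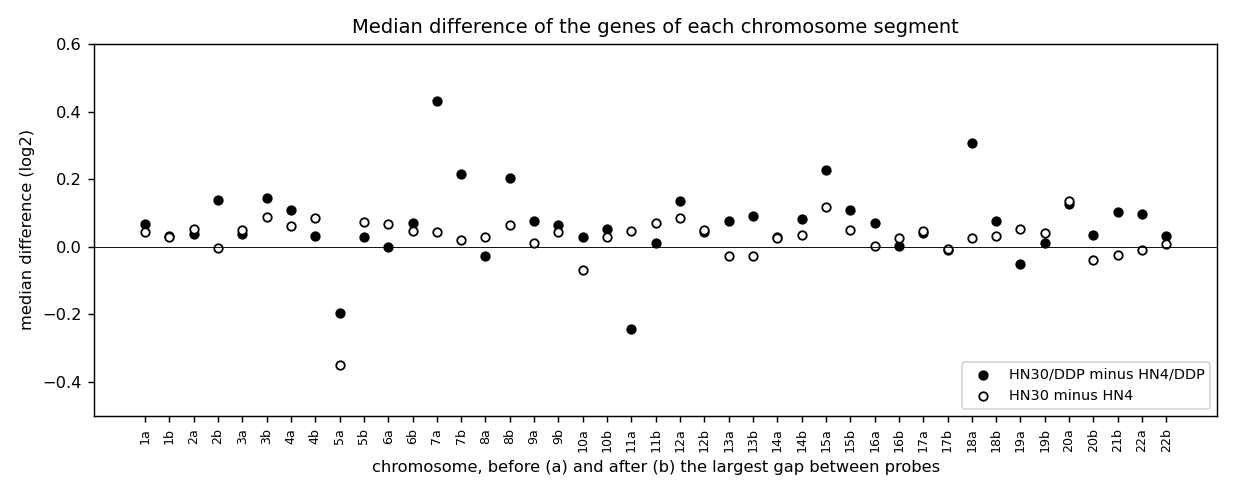
Median difference (log2, y axis) of the genes of each chromosome segment, before (a) and after (b) the widest stretch without probes, for the resistant lines (filled) and the parental lines (open). The resistant medians stand apart from the parental ones at 7a (0.43 and 0.04), 18a (0.31 and 0.03) and 11a (-0.24 and 0.05), while at 5a both lie below 0.

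Neighbouring genes were also taken in runs of 25 that were well above background on both resistant arrays. The medians of all 22945 runs went from -1.35 to 1.14. The lowest was the epidermal differentiation cluster on chromosome 1, from LCE3E to S100A7 (chr1:152538313-153431390, hg19), at -1.35, with SPRR2A, SPRR2E and SPRR2C furthest apart and 8 of the 25 genes not on the side of HN4/DDP. Next in this direction were a run on chromosome 11 from PRRG4 to PDHX (chr11:32875016-35016751) at -0.996, which holds LMO2, ABTB2 and KIAA1549L, and a run on chromosome 17 from MRPL12 to STRA13 (chr17:79674001-79976695) at -0.96, which holds PCYT2 and ALYREF. In the direction of HN30/DDP stood the start of chromosome 7 (chr7:80379-1029178) at 1.14 with 22 of 25 genes above 0, a run on chromosome 2 (chr2:220427396-223807554) at 1.12 with 24 of 25, and a second run on chromosome 7 (chr7:2420062-5343165) at 1.05 with 22 of 25. FAM20C, a kinase of secreted proteins on the first of these, had a level of 6.06 in HN4 and 2.07 in HN4/DDP, against 6.06 in HN30 and 6.57 in HN30/DDP. In all 3 runs the parental medians lay between -0.17 and -0.04, and the change in HN4/DDP was the larger term, from -0.90 to -0.62. The runs were ranked by this difference, so their values are a description.

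Further probes, 336 in all, were available for 262 of the genes higher in HN30/DDP. At least 1 of them was past the threshold in the same direction for 133 genes and of the same sign for 247. At least 1 had the opposite sign for 25 genes and was past the threshold in the opposite direction for 3. For 125 genes higher in HN4/DDP, with 169 further probes, these counts were 65, 110, 22 and 0. Close to the threshold, 135 genes higher in HN30/DDP lay between 2.0 and 2.1 and 154 between 1.9 and 2.0, and towards HN4/DDP 53 lay just beyond and 97 just short of it. Of the called genes, 809 and 382 were represented by a RefSeq messenger RNA, 51.0% and 54.9%, beside 52.8% of the genes tested.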

How the data were processed

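Each line was hybridised to 1 one-colour Agilent array and scanned by the authors, and the deposited scanner tables hold background-subtracted intensity values made with Agilent Feature Extraction. A deposited series table holds log2 values of the same arrays, and no source used here says how the authors normalized these. It served as an alternative. Control probes, outlier spots and probes on chromosomes X and Y were left out. Replicate spots were averaged per probe, log2 of the intensity was taken minus the 75th percentile of the array, and the probe with the highest mean stood for its gene. Levels of different probes are not compared. A gene was called at a log2 difference beyond 2 with a signal well above background on the brighter array. With 1 array per line no test was run, and their number limits the precision.

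Named genes were those furthest apart among RefSeq messenger RNAs well above background on both arrays, those with the largest bounds, members of the lists and the genes the study followed. The members and the lists were chosen with earlier results of these data known. Of 1105 listed symbols 1077 matched the array. Symbols and promoters came from RefSeq (GRCh38.p14), and probe positions are on hg19. Alternatives were normexp background correction, other scalings, a pseudocount, a floor for dim signals, the mean of a gene's probes, the deposited table and other thresholds and filters, and scaling to the spike-in probes was chosen after seeing the data. Scripts were tested on simulated data and ran in Python 3.11.15 with pandas 2.3.3 and numpy 2.4.6, and in R 4.3.3 with limma 3.58.1.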

Additional observations from a re-analysis of the deposited data

Results flagged for a closer look

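The median change of several gene lists from parent to resistant line had opposite signs in the 2 lines, as did the median of all genes tested, at 0.07 in HN30/DDP and -0.08 in HN4/DDP. Keratins had -0.57 in HN30/DDP and 1.19 in HN4/DDP. HOX genes had 0.27 and -0.96, mesenchymal genes 0.24 and -0.63, NOTCH, TGFB, BMP and IGF genes 0.50 and -0.34, and collagens, laminins and integrins 0.37 and -0.29, each in the same order. Among single genes, 54 of those higher in HN30/DDP and 20 of those higher in HN4/DDP had own-line changes past the threshold in opposite directions. With 1 array per line these differences were not tested. Outside the gene measurements, the median of 7 spike-in probes was 0.18 higher on the HN30/DDP array than on the HN4/DDP array.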

How the results depend on the processing

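No gene past the threshold whose difference was recomputed changed sign, and the direction of the other called genes was not followed. Differences near 0 can change sign with the scaling, as those of EGF and PERP did, and so did the medians of the EGFR family, PI3K and ribosomal protein lists. The number of calls depended on the settings. In the order higher in HN30/DDP and higher in HN4/DDP, normexp background correction gave 403 and 221 genes, a pseudocount of 16 gave 735 and 374, thresholds of 1 and 3 gave 4575 and 2823 and then 632 and 271, signals above background on both arrays 699 and 358, and RefSeq messenger RNAs 809 and 382. A floor for dim signals left 969 higher in HN30/DDP, and median scaling gave 1091 higher in HN4/DDP. The share of calls higher in HN30/DDP was 52.0% with median scaling and 59.4% in the deposited table, beside 69.5%. For gene lists, the number higher in HN4/DDP ran from 1 to 6 for DNA replication, 0 to 4 for mitosis, 2 to 7 for mucins, 1 to 3 for p53 targets and 5 to 9 for chemokines, and the number higher in HN30/DDP from 5 to 9 for WNT, 2 to 6 for collagens, 1 to 5 for mesenchymal genes and 3 to 7 for chemokines. The genes higher in HN30/DDP that were past the threshold the same way between the parents numbered 2 with normexp, 7 with the pseudocount, 8 with the floor, 153 and 5 at thresholds of 1 and 3, and 4 above background on both arrays. Those higher in HN4/DDP numbered 4, 13, 14, 210, 11 and 18 in that order, 19 as messenger RNAs and 62 with X and Y kept. Opposite to the parents, genes higher in HN30/DDP numbered 5, 12, 22, 536, 12 and 23, and 24 as messenger RNAs, and those higher in HN4/DDP 3, 4, 7, 90, 4 and 5, and 7 as messenger RNAs. Except for the settings that only change a threshold or a filter, the cause was not tested. No paired analysis was possible because each line had 1 array, and no replicate could be left out. Spots not well above background limit the comparison to bounds.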
